A study of Homo sapiens with 2 samples.

Results

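The 10 genes described here, TF, CP, AHSG, FETUB, HRG, KNG1, ITIH3, ITIH4, LIPC and RBP4, encode proteins that hepatocytes release into the blood. They were taken by name, 8 from chromosome 3, 1 from chromosome 15 (LIPC) and 1 from chromosome 10 (RBP4), and form 10 of 20176 annotated protein-coding genes. A gene was counted as having a peak if at least 1 base of its GENCODE span on hg19 lay in a listed peak of the MTR4-HA RIP. Of the 3304 listed positions, 5 met this rule, in 3 genes. PLC/PRF5 cells, a line from hepatocellular carcinoma, overexpressed MTR4 with an HA tag from a plasmid. RNA bound in nuclear lysates was precipitated with an antibody against HA in 1 library and with IgG in the other, each from cells with the same overexpression. The title of the IgG library names it an input. The 1 list analysed does not name its library and was taken to be that of the anti-HA precipitate, from its designation as an immunoprecipitate and the study's methods, and every statement on MTR4-HA peaks rests on this. Neither an antibody difference nor a replicate spread could be measured.

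MTR4 is an RNA helicase that unwinds RNA for the nuclear exosome, a complex of ribonucleases that shortens or destroys nuclear transcripts. Its substrates include introns, unspliced transcripts and other by-products of transcription. Genes of secreted plasma proteins are among the most strongly transcribed genes of the normal liver, and hepatoma cell lines keep this program to different degrees. Whether PLC/PRF5 cells transcribed the 10 genes was not measured in this list. ALB and AFP, usual hepatocyte genes, lie on chromosome 4 with 1 listed position, and SERPINA1 lies on chromosome 14 with 3. None of these 3 genes had a peak, and on chromosomes with so few positions this does not check the cell type. Of all positions, 99.6% lay on chromosomes 3, 7, 10, 15, 20 and 22. The score took the values 60 and 1 and every position was 400 bases wide, so peaks could be placed but not ranked. The list gives no read number. A more abundant transcript and a more tightly bound one cannot be told apart in it.

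Parts of 4 of the 5 peaks are shown as sequence, because they are what was listed as bound in these genes. Each is 300 bases of hg19 on the strand of the gene, 5′ to 3′. In the first pair, the peaks that hold a coding exon of the canonical transcript, capitals mark exon bases. In the second pair, which lie wholly in introns, capitals mark the short motif CCANC (any base but A at N), discussed with the motif counts. Its form with a fixed G is not marked. The LIPC 2190 stretch was placed to hold the most CCANC matches. The other stretches are the middle 300 bases of their peaks. The fifth peak lies in untranslated sequence and is not printed.
TF peak 4842, chr3:133489252-133489551, + strand: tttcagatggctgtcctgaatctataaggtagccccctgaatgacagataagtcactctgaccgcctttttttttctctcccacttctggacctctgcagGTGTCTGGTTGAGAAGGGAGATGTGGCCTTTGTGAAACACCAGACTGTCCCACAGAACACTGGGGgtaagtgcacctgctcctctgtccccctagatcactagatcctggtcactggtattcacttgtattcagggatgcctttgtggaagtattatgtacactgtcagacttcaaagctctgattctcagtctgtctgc
LIPC peak 2191, chr15:58855817-58856116, + strand: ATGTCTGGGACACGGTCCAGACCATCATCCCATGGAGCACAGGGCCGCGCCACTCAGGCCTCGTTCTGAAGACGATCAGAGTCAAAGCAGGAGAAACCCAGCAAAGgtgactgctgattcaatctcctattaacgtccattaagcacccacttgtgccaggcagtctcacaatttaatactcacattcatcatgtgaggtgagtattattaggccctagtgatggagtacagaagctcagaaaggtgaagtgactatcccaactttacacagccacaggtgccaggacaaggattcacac
LIPC peak 2190, chr15:58732423-58732722, + strand: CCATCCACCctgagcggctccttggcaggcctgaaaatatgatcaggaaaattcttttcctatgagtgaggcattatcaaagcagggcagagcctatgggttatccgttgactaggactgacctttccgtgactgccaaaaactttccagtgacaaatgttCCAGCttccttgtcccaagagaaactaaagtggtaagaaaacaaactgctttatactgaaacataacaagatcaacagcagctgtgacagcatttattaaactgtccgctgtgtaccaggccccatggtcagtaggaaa
CP peak 4935, chr3:148894752-148895051, − strand: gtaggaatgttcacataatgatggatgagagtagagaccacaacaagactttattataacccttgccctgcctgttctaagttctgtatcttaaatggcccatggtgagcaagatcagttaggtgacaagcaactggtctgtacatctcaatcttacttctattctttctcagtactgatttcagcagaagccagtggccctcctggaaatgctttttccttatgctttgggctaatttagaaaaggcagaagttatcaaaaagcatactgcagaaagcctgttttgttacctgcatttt
The first begins in the intron, passes through 65 coding bases and leaves the exon at the GT that opens the next intron. The second begins in the exon and likewise passes into the intron at GT.

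The iron and copper proteins were considered first. TF (ENSG00000091513, chromosome 3, 133464884 to 133515485, + strand, 50602 bases) encodes transferrin, which carries iron in plasma. It held 1 peak. Peak 4842 (133489202 to 133489601) had its midpoint 24517 bases from the gene start, at 48.5% of the gene length. It contained the whole of exon 14 (133489352 to 133489416) of the 17 exons of the canonical transcript, with 150 bases of intron 13 and 185 bases of intron 14. Both splice sites of exon 14 thus lay inside the peak. A TF transcript annotated as retaining an intron, TF-205, has an exon of 449 bases (133489352 to 133489800) that runs on over all of the intron 14 part of the peak. The last exon of TF carries an untranslated stretch of 18024 bases (133497462 to 133515485), and no peak fell in it. TF shares 12619 bases at its 3′ end with SRPRB, which encodes a subunit of the receptor for the signal recognition particle. SRPRB held 2 peaks, and the nearer, 4843, began 14317 bases past the end of TF.

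CP (ENSG00000047457, chromosome 3, 148880197 to 148939616, − strand, 59420 bases) encodes ceruloplasmin, the copper-carrying ferroxidase of plasma. It held 2 peaks, both in the 3′ part of the gene. Peak 4935 (148894702 to 148895101) lay in intron 17 of the 19-exon canonical transcript, at 75.3% of the gene length. This intron is 1427 bases long, and the peak began 525 bases after its 5′ end and stopped 502 bases before its 3′ end. No canonical exon was touched. Peak 4934 (148890702 to 148891101) lay entirely in exon 19, at 82.0% of the gene length, and all 400 of its bases were 3′ UTR of CP. The same 400 bases are also 3′ UTR of HPS3, which encodes a subunit of a complex for lysosome-related organelles. HPS3 lies on the opposite strand (148847425 to 148891519, + strand) and converges on CP. The listed strand is + for every peak and carries no information, so peak 4934 cannot be given to either gene. HPS3 held 4 further peaks outside CP, the nearest of them, 4932, at 2596 bases from the CP span. Without peak 4934, CP still had 1 peak.

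LIPC (ENSG00000166035, chromosome 15, 58702768 to 58862043, + strand, 159276 bases) encodes hepatic lipase, which hydrolyses the lipids of lipoproteins in the liver. It was the longest of the 10 genes and held 2 peaks, one in the first intron and one toward the 3′ end. Peak 2190 (58732392 to 58732791) lay in intron 1, at 18.7% of the gene length. Intron 1 spans 106212 bases, and the peak started 8072 bases after its 5′ end. Its position is shared with introns of 2 genes on the opposite strand, the lncRNA gene LIPC-AS1 and ALDH1A2, which encodes an enzyme of retinoic acid synthesis. ALDH1A2 spans 544444 bases and held 6 peaks, this one included. As the listed strand carries no information, peak 2190 cannot be given to LIPC rather than to these genes. Peak 2191 (58855767 to 58856166) lay at 96.2% of the gene length and held the last 156 of the 219 bases of exon 8, all coding, with 244 bases of intron 8. The 5′ splice site of intron 8 was inside it. As at TF, a transcript annotated with a retained intron, LIPC-205, has an exon of 504 bases (58855704 to 58856207) that covers the intronic part. Peak 2191 touched no other gene.

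**Figure D1:**
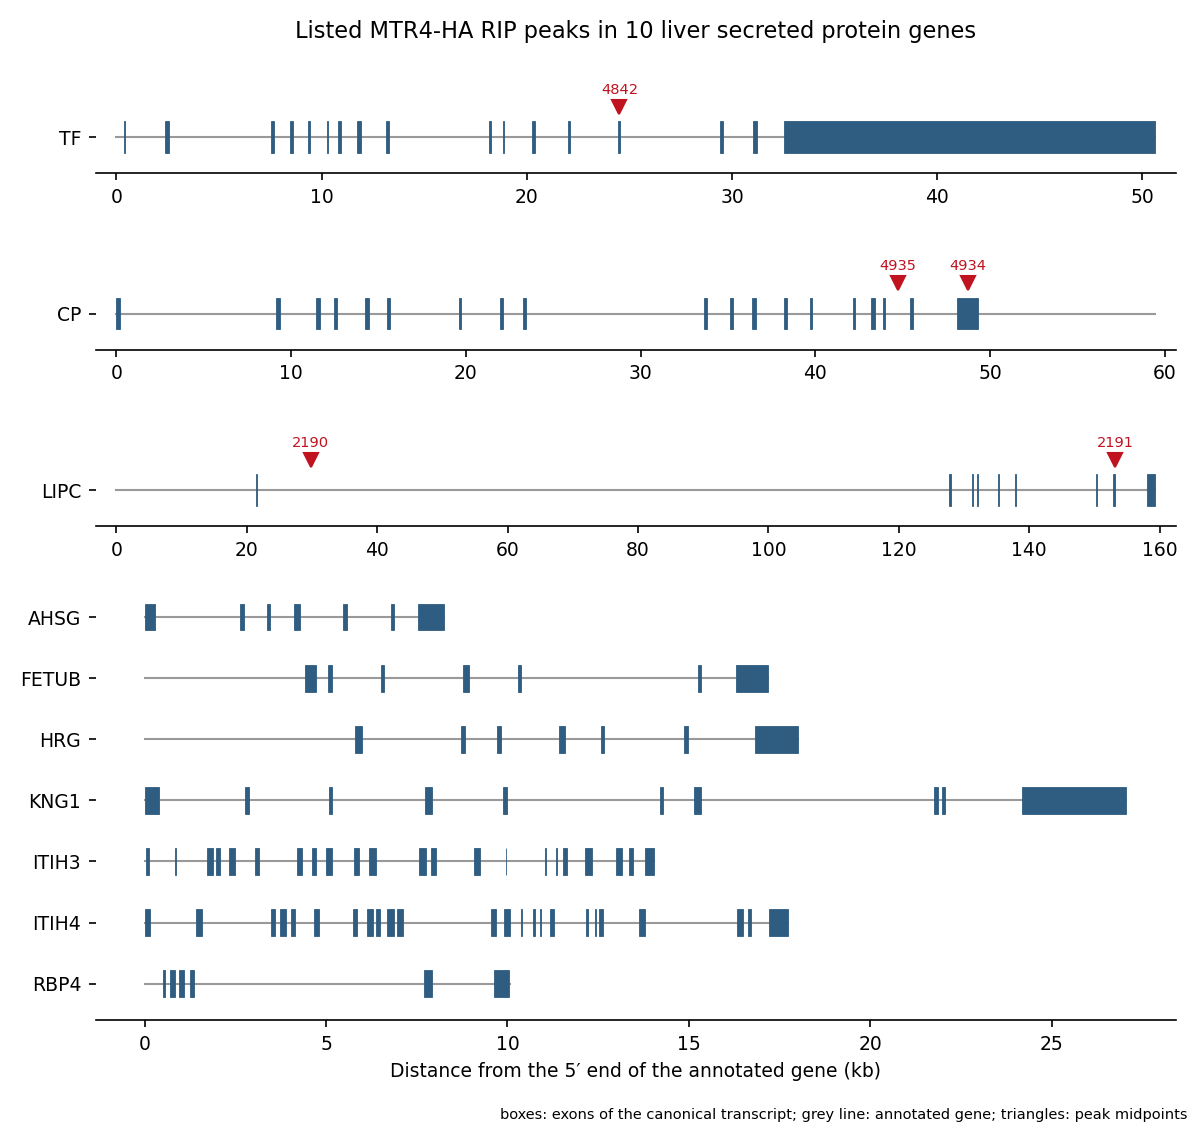
Gene models of the 10 genes, drawn 5′ to 3′ from the annotated gene end in kb, with exons of the canonical transcript as boxes and peak midpoints as triangles. The first 3 rows have their own scales and the other 7 genes share one. TF has 1 peak, CP and LIPC have 2 each, and the other 7 genes have 0.

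The other 7 genes had no listed peak. AHSG (fetuin-A, an inhibitor of mineral deposition), FETUB (fetuin-B, a protease inhibitor), HRG (histidine-rich glycoprotein) and KNG1 (kininogen, the precursor of bradykinin) belong to the cystatin superfamily and lie next to each other on chromosome 3, all on the + strand. From the start of AHSG (186330849) to the end of KNG1 (186462199) they cover 131351 bases. The flanking peaks were 5219, 27148 bases before AHSG, and 5220, 17703 bases after KNG1. Peak 5219 lay in the 3′ UTR of DNAJB11, which encodes a chaperone of the endoplasmic reticulum. The lncRNA gene HRG-AS1 (186297265 to 186490775, − strand) runs opposite to the whole cluster. Both flanking peaks were within its span, outside the 4 coding genes. EIF4A2, a translation factor gene that is the next protein-coding gene after KNG1, had no peak either.

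The distance of 176200 bases between peaks 5219 and 5220 can be set beside the other distances on chromosome 3. The median of 1276 such distances was 22350 bases, and 216 (16.9%) were at least as long as this one. This distance was picked because it holds a cluster of 131351 bases, so it could not be shorter than that. A distance picked through a gene also tends to be a long one. The share therefore does not show that the stretch is unusually empty. The numbers of the flanking peaks follow each other directly, so no number is missing between them. Peak numbers never fell with position between neighbouring uniquely named peaks of chromosomes 3, 10 and 15.

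ITIH3 and ITIH4 encode heavy chains of the inter-alpha-trypsin inhibitor family, plasma proteins of the hyaluronan matrix and the acute phase. They are neighbours on chromosome 3 with opposite strands (52828784 to 52842815, + strand, and 52846978 to 52864704, − strand). Neither had a peak. ITIH1, which lies 2700 bases before ITIH3, also had none. The nearest peaks were 4359, in a coding exon of NEK4 at 42483 bases from ITIH3, and 4361, in an intron of STIMATE at 26298 bases from ITIH4. Number 4360, which falls between them, has no listed position. ITIH2, a paralog on chromosome 10 with a longer span (46205 bases), had 3 peaks. The family members ITIH5 and ITIH6 were looked up after these values were seen. ITIH5, on chromosome 10, had 1 peak. ITIH6, on chromosome X with 1 listed position, had 0.

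RBP4 (ENSG00000138207, chromosome 10, 95351444 to 95361501, − strand, 10058 bases) encodes the plasma carrier of retinol. It had no peak and lay farthest from one. The nearest listed positions were 1072 in an intron of MYOF, 233443 bases away, and 1083 in SLC35G1, 300101 bases away. FFAR4, CEP55 and PDE6C, which overlap or adjoin RBP4, had 0 peaks each. All 10 numbers between 1072 and 1083 have no listed position. Such numbers were common on chromosome 10. It had 516 listed positions, while its peak numbers ran from 156 or lower to 1711 or higher. For RBP4 the list therefore cannot say whether a peak called nearby was left out, which differs from the cluster of AHSG to KNG1. Chromosome 10 had a peak in 31.9% of its protein-coding genes, against 49.1% on chromosome 3 and 47.8% on chromosome 15.

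**Figure D2:**
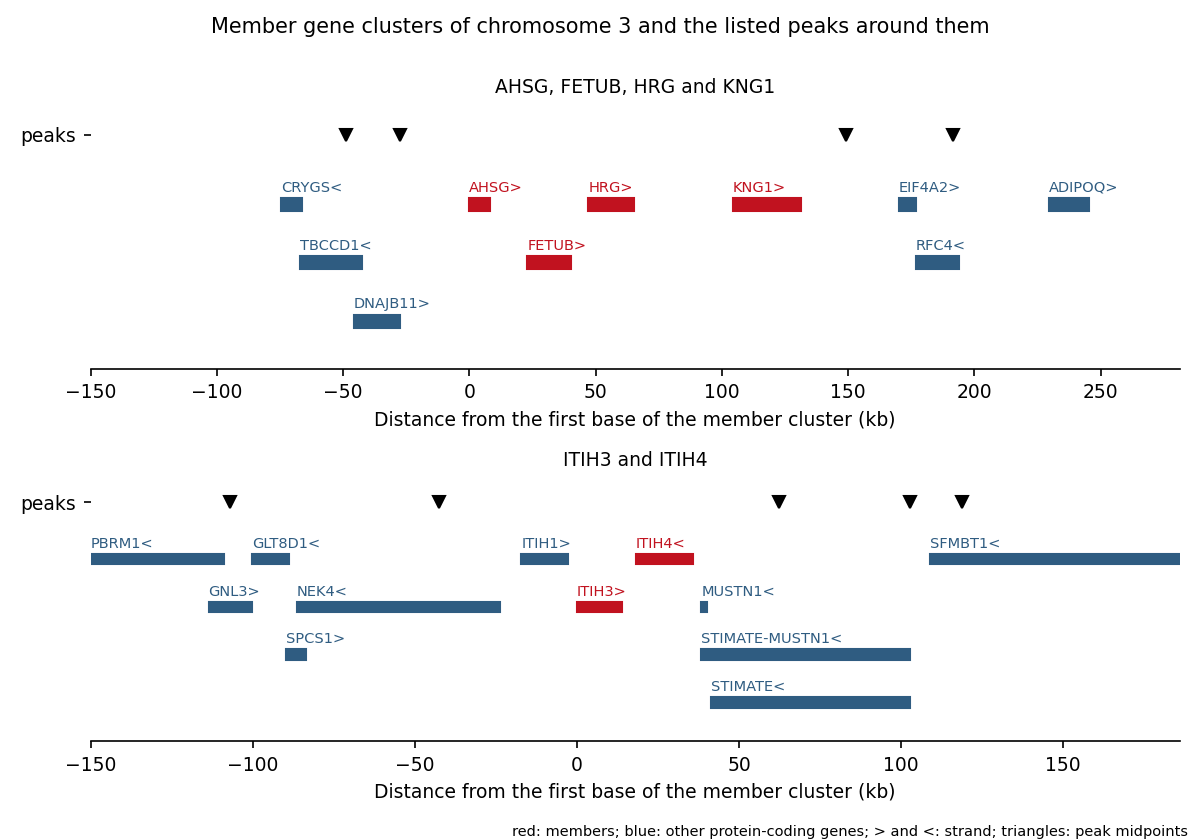
The AHSG to KNG1 cluster and the ITIH3 and ITIH4 pair on chromosome 3, as distance in kb from the first base of each cluster, with named protein-coding genes as bars and peak midpoints as triangles. No triangle lies over a red bar, and the flanking peaks are 176200 bases apart in the first map and 104700 in the second.

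The count of genes was then set beside that of other genes. A peak was present in 3 of the 10 genes, or 30.0% (exact 95% binomial interval 6.67 to 65.2, counting error only). On chromosomes 3, 10 and 15, 43.5% of 2432 protein-coding genes had a peak. Among the 1764 of them within the length range of the 10 genes (8259 to 159276 bases), 46.4% had one. Both shares lie inside the interval. The interval treats the 10 genes as independent. Yet AHSG, FETUB, HRG and KNG1 lie together in a stretch without a peak, and so do ITIH3 and ITIH4. A departure from the other genes was therefore neither shown nor excluded. The number of peaks per gene was set beside that of other genes as description only. Of the 1059 genes with a peak, 48.3% held 1, as TF did, and 21.7% held 2, as CP and LIPC did. The density over the whole span was 1.31 positions per 100 kb in the 10 genes and 1.13 per 100 kb in all protein-coding genes of these chromosomes.

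Genes with and without a peak were separated by their length. TF (50602 bases), CP (59420 bases) and LIPC (159276 bases) were the longest of the 10, and the longest gene without a peak was KNG1 (27063 bases). No gene of the 10 lay between these lengths. The TF span includes the untranslated stretch of 18024 bases without a peak, and the canonical transcript of CP spans 49333 bases. The placing of TF and CP over 50 kb thus depends on the annotated span. Longer genes of the same chromosomes had a peak more often up to 200 kb. The share was 20.1% of 407 genes up to 10 kb, 35.0% of 591 genes from 10 to 30 kb, 56.7% of 494 genes from 50 to 100 kb and 60.9% of 317 genes from 100 to 200 kb. For genes longer than 200 kb it was 51.0% of 259. Within the lengths of the 7 genes without a peak (8259 to 27063 bases), 33.1% of 580 genes had one, and within those of the other 3, 58.3% of 727 genes did. The 7 genes together span 112331 bases. The length ranges were chosen after the values were seen.

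**Figure D3:**
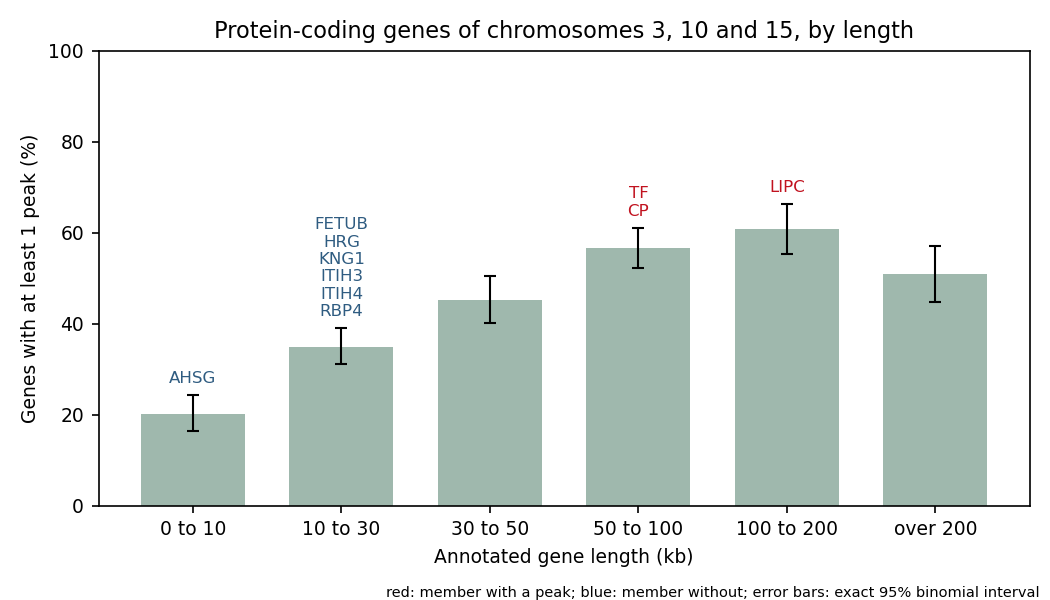
Share of protein-coding genes of chromosomes 3, 10 and 15 with at least 1 peak, by annotated gene length in kb, with exact 95% binomial intervals and the 10 genes named above their range. The share rises from 20.1% up to 10 kb to 60.9% at 100 to 200 kb, and the 3 genes with a peak (red) stand in the 2 ranges with the highest shares.

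Position within the gene was examined for the 5 peaks, since the study asked whether MTR4 binds pre-mRNA. By the midpoint, over all transcripts of the gene, 3 of 5 peaks were exonic (exact 95% binomial interval 14.7% to 94.7%) and 2 were intronic. The exonic ones were a coding exon (TF 4842), a 3′ UTR (CP 4934) and a noncoding exon (LIPC 2191), the last only through the transcript with the retained intron. By the canonical transcript alone, peak 2191 was intronic at its midpoint and 2 of 5 (40.0%) were exonic. Among all 2951 positions with a midpoint in a protein-coding gene, 50.3% were exonic in at least 1 protein-coding gene there. The 5 peaks are too few to be told from that value.

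Intron sequence was present in 4 of the 5 peaks by the canonical transcript. It made up 335 of 400 bases in TF 4842, 244 in LIPC 2191, all 400 in CP 4935 and LIPC 2190, and 0 in CP 4934. An exon-intron boundary of the canonical transcript lay inside 2 of the 5 (TF 4842 and LIPC 2191), as it did in 38.1% of 2948 peaks in protein-coding genes with a canonical transcript. In the same 2 peaks at least part of the intronic bases, 185 of 335 in TF 4842 and all 244 in LIPC 2191, are exon in a transcript annotated with a retained intron. At least 1 such base was present in 9.70% of those 2948 peaks. This property was noticed in the 2 peaks before it was counted.

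**Figure D4:**
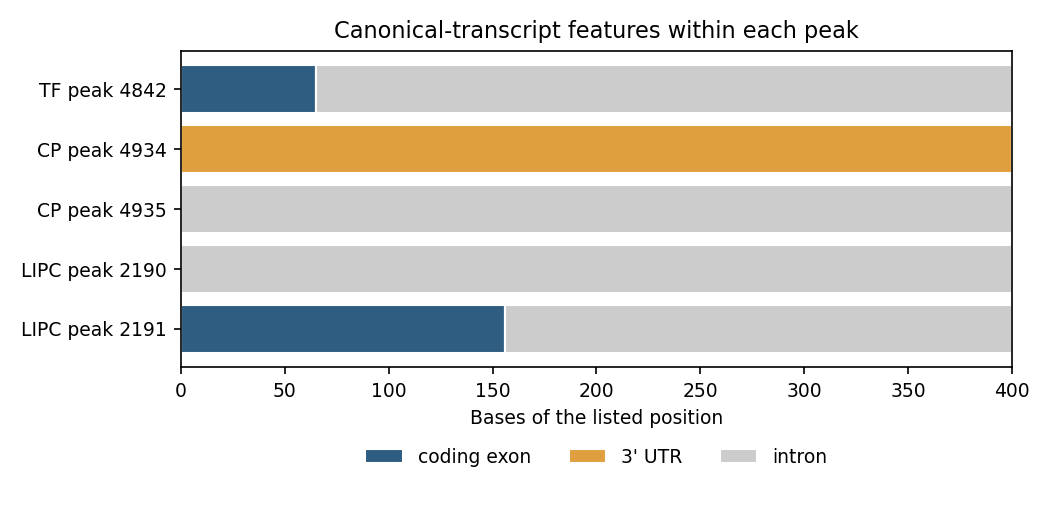
Bases of each 400-base position in coding exon, 3′ UTR and intron of the canonical transcript of TF, CP or LIPC. TF 4842 holds 65 coding bases and LIPC 2191 holds 156, CP 4934 is 3′ UTR throughout, and the other 2 peaks are intron throughout.

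Each 400-base peak was searched, as read 5′ to 3′ along its gene, for the short motif and the poly(A)-like motif that the study linked to MTR4 binding. The short motif, searched as CCANC with any base but A at N, occurred in 3 of the 5 peaks, while 72.8% of all 2951 peaks in protein-coding genes held it on the strand of their gene. Read with a fixed G between CCA and the variable base, the other way the motif can be taken, it was again in 3 of 5 and in 43.1% of all. LIPC 2190 held CCANC 3 times on the LIPC strand, in intron 1, and 0 times on the strand of ALDH1A2 and LIPC-AS1. This does not assign the peak to LIPC. LIPC 2191 held CCANC 2 times, both in the coding part of exon 8, and the form with a fixed G 1 time, in intron 8. On the other strand LIPC 2191 held CCANC 1 time. CP 4934 held CCANC 1 time on the CP strand, as CCAGC in the 3′ UTR, and 1 time on the strand of HPS3. TF 4842 and CP 4935 held CCANC 0 times on the gene strand and 1 time each on the other strand. In LIPC 2190 the first and second matches overlap by 1 base and can be read at the start of the printed sequence. The poly(A)-like motif was absent from all 5 on both strands. Of all peaks in protein-coding genes, 2.74% held it on the gene strand and 6.40% on either strand. The longest run of A was 6 bases (CP 4934) and the longest run of T was 9 bases, in TF 4842, where it stands in intron 13 just before exon 14 in the printed sequence. GC content was 33.5% in CP 4934, 39.8% in CP 4935, 43.5% in LIPC 2190, 46.0% in TF 4842 and 50.8% in LIPC 2191. The median over all such peaks was 44.5%, and all 5 values fell between their 10th and 90th percentiles (33.0% and 63.8%).

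Other genes of secreted liver proteins were counted in the same way. A list of 99 such genes had 21 on the 6 chromosomes with most positions, and 4 of the 21 had a peak (19.0%, exact 95% binomial interval 5.45 to 41.9). On these chromosomes 32.1% of 4362 protein-coding genes had one, a value inside the interval. The other 78 genes had 0 peaks, and 49 of them lie on chromosomes with no position at all. PROS1, which encodes the anticoagulant protein S, held 4 peaks (4539 to 4542), and each of them crossed a canonical exon-intron boundary. ITIH2 held peaks at exon 3 (156), exon 16 (160) and exon 21 (162), each also across a boundary. APOL1, an apolipoprotein gene of chromosome 22, held 1 peak in intron 4 and 1 in the 3′ UTR. PLTP, the gene of the phospholipid transfer protein on chromosome 20, was counted only because its last exon shares bases with peak 2819, whose midpoint lies outside PLTP and which also overlaps CTSA. Of the 10 peaks in this list, 7 crossed a boundary, all of them in PROS1 and ITIH2, beside 38.1% of all peaks in protein-coding genes and 2 of 5 in TF, CP and LIPC. Like the 10 genes, the 21 were short, with a median length of 14460 bases, against 17873 bases for the 10.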

How the data were processed

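PLC/PRF5 cells overexpressing MTR4-HA were subjected to RIP with anti-HA or IgG, 1 library each, grouped by the antibody in the labels. The authors removed adapters, mapped reads to hg19 (TopHat 2.0.13 per the labels) and called peaks with RIPSeeker. They annotated peaks with Homer and sought motifs with MEME-ChIP. The caller's settings, its use of the IgG library and any filter on called peaks are not given in the sources used here. The deposited list gives a position, a name, a strand and a score per peak. The deposited score took 2 values and ranked nothing. Depth is unknown.

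Starts were converted to count from 1, and GRCh37 sequence with GENCODE release 44 lifted to it was used (same build as hg19). A peak belonged to a gene sharing at least 1 base. Its class was that of its midpoint over all transcripts of that gene, coding exon first, then UTR, noncoding exon and intron. For the 2951 positions set beside the 5 peaks, it was taken over every protein-coding gene at the midpoint. That rule can only raise the exonic share. The canonical transcript is the one tagged so by the annotation. Intervals are exact binomial (scipy 1.17.1) and cover counting error within this list. No test was run, since 1 library has no replicate and genes are not replicates. The overlap and class steps were checked on made-up gene models. The 10 genes and both comparison lists were chosen with earlier results of these data known. Genes named are the 10, genes at their peaks, their neighbours and list genes with a peak, except where stated. The length ranges and the comparison with retained introns were added after the values were seen. Alternatives changed the overlap, gene span, class and motif reading.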

Additional observations from a re-analysis of the deposited data

How the results depend on the processing

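Of 22 alternatives computed, 2 of which were added after seeing the data, 20 left the value within 1.5 times or within its binomial interval. The count of 3 genes with a peak was 3 under all 5 of its alternatives, which were the midpoint, an overlap of 200 bases, a flank of 5000 bases, the canonical span and leaving out positions shared with another protein-coding gene. The count of 5 peaks fell to 3 when shared positions were left out (an added alternative), since CP 4934 also lies in HPS3 and LIPC 2190 in ALDH1A2. The short motif was in 5 of 5 peaks on either strand, against 3 on the gene strand, and either strand doubles the sequence searched. Of all 2951 peaks in protein-coding genes, 91.1% held it on either strand. Between 2 and 3 of the 5 peaks were exonic under every class rule tried. No paired analysis was possible because there was a single library for the anti-HA and for the IgG precipitation, and no test was run. Depth is unknown, so the 7 genes without a peak cannot be called unbound. Whether they were transcribed in these cells was not tested.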

Other observations

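Genes of intracellular hepatocyte enzymes and transporters offer a further view of liver transcripts in the list. Of 45 such genes, 27 lie on the 6 chromosomes with most positions, and 10 of these had a peak (37%, exact 95% binomial interval 19.4 to 57.6), beside 32.1% of all protein-coding genes there. That share is lowered by chromosomes 7 (4.07%) and 20 (11.2%), where few of the 27 genes lie. On chromosomes 3, 10 and 15, where most of them lie, 43.5% of 2432 protein-coding genes had a peak. HGD (chromosome 3, 54098 bases) and FAH (chromosome 15, 34457 bases), enzymes of tyrosine breakdown, held 4 and 3 peaks. GATM, an enzyme of creatine synthesis, held 2. CYP1A1 and CYP1A2, cytochrome P450 genes of chromosome 15 that are only 5995 and 7763 bases long, each held 1 peak in coding exon 2. ABCC2, SORD, CYP2C18, CYP2E1 and CYP8B1 held 1 each, and those of CYP2E1 and CYP8B1 touched no exon or intron of the canonical transcript and also overlap other genes. The peak of ABCC2 also overlaps NANOGP6. Of the 12 genes in this list up to 30000 bases long, 3 had a peak, and of the 15 longer ones 7 did. In the list of other secreted proteins the counts were 2 of 15 and 2 of 6. The difference between these lists was not tested, and more genes of the secreted list lie on chromosome 7.

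Next to the AHSG to KNG1 and RBP4 loci, other stretches without a position also exist. A distance at least as long as that around RBP4 (543600 bases) occurred in 61 of 515 cases on chromosome 10 (11.8%), and one at least as long as that around ITIH3 and ITIH4 (104700 bases) in 306 of 1276 cases on chromosome 3 (24%). These distances too were picked through the genes in them, so the shares do not show unusually empty stretches. Around CP, the numbers 4933 and 4936 have no listed position.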
